A study of Mus musculus with 30 samples.

Results

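Solute carriers, the membrane proteins that move amino acids, sugars, nucleosides, vitamins, metals and ions across cell and organelle membranes, were followed in mouse dendritic cells with and without the transcription factor Irf4. Members were genes whose symbol starts with Slc and a number, with a probe marked well above background in the sample channel on all 5 arrays of at least 1 group. Of 327 such genes with a named probe, 207 passed. A further 11 carriers (Slc2a1, Slc2a3, Slc16a1, Slc16a3, Slc7a2, Slc7a11, Slc11a1, Slc11a2, Slc27a3, Slc39a8 and Slc40a1) were left out by the rule. Detection chose the members, and Slc1a2 was singled out for its pattern across the groups. Its values are therefore a description, and no test result is read for it. It was fitted like every other gene and stays in the counts of members called below. Of the members, 157 were well above background on all arrays of all 6 groups, and 50 entered through 1 to 5 groups. Just inside the detection limit were Slc13a2 (8 of 30 arrays), Slc13a3 (10 arrays) and Slc9a4 (11 arrays). Just outside it were Slc17a9 (22 arrays), Slc2a2 (17 arrays) and Slc6a11 (17 arrays), each marked on 4 arrays of its best group.

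The cells were bone marrow-derived dendritic cells of C57BL/6 mice, grown in culture and selected on beads for CD11c after stimulation. The series title speaks of MHCIIlo and MHCIIhi cells, but no label says which of them a sample holds, and their shares in each sample are not known here. Control cells carried the CD11c-Cre transgene alone, and knockout (KO) cells carried CD11c-Cre together with IRF4flox, so all 6 groups carried Cre, driven by the promoter of CD11c, and deletion was limited to cells that had turned that promoter on. Each genotype was left unstimulated or given lipopolysaccharide (LPS), a bacterial cell wall component that activates Toll-like receptor 4, for 6 h or 24 h, with 5 samples a group. Neither the age of the mice nor whether a sample is a mouse or a culture is stated in the labels; the spread that the p-values rest on, between the 5 samples of a group, may be technical.

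Solute carriers fall into families that share a fold and, often, a kind of substrate. Many work as exchangers or use the sodium or proton gradient, and the SLC25 family sits in the inner mitochondrial membrane. Glutamate carriers of the SLC1 family take glutamate up with sodium; Slc1a2 is best known for clearing glutamate at synapses, in astrocytes. Phagocytes that sense LPS are known for changing their use of glucose, amino acids and metals.

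Each array set a Cy5-labelled sample against a Cy3-labelled universal mouse reference RNA, and a level is the log2 ratio of sample over reference (± SD, n = 5). A level compares samples for 1 gene, not genes with each other. A log2 difference is given ± SE from the limma fit over all 30 arrays, and a member was called where limma's p-value, adjusted over all 11260 genes tested, was under 0.05. In bulk RNA, fewer cells of a type and less RNA per cell cannot be told apart.

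The deleted gene, Irf4, had lower levels in the KO samples at each time, with no overlap (control first): 1.41 ± 0.24 against -1.49 ± 0.80 unstimulated, 2.31 ± 0.24 against -0.11 ± 0.30 at 6 h and 2.14 ± 0.33 against -0.03 ± 0.44 at 24 h (levels). Itgax, which encodes CD11c, was well above background on all 30 arrays. Of the dendritic cell markers listed, 9 of 10 were tested; 5, 3 and 2 of them were lower in KO cells unstimulated, at 6 h and at 24 h, and 0 were higher. Of the MHC class II genes among them, Cd74 and Ciita were lower in KO cells at all 3 times, and H2-Aa unstimulated and at 6 h. H2-Ab1 was not called at any time, with differences of -0.04, 0.21 and 0.07. The part of cells high or low in MHC class II in the results was not tested. The summed Cy5 signal of the dendritic cell markers ran from 69313 to 169106 (control unstimulated), 79031 to 188896 (control 6 h) and 79256 to 177095 (control 24 h). In the matching KO groups it ran from 21175 to 44711, 43318 to 62998 and 51103 to 70905. Of 9 neutrophil markers, 7 were tested, and 1, 3 and 3 were lower in KO cells; their summed signal ran from 8507 to 88673, 20703 to 139099 and 9534 to 131092 in control cells and from 4976 to 39388, 3701 to 25010 and 2296 to 10090 in KO cells. Of the 9, 1 had no probe, and 1 to 3 of the other 8 were well above background on no array of a group. Of 8 macrophage markers tested, 0 were called between the genotypes, and their summed signal ran from 13761 to 62946 in control and 26580 to 117502 in KO cells. B cell (3 tested), T and NK cell (3) and mast cell markers (4) gave 0 calls, erythroid and megakaryocyte markers (5) 1 at each time, and stroma and endothelium markers (7) 1, 1 and 0. The part of these cells in the KO differences was not tested. No slide held both genotypes at 1 treatment, so slide and genotype cannot be told apart within a time. Replicates 1 to 4 of the KO LPS 24 h group had a slide to themselves, and so did replicates 2 to 5 of the KO LPS 6 h group. With the slide as a block, KO values at 24 h therefore rest on replicate 5 alone, and those at 6 h on replicate 1 alone. A change of direction there is no firm check. One slide was scanned on another day than the others and held replicate 3 of the control LPS 6 h group and replicate 2 of the control LPS 24 h group. Over the 19 members that moved at least 2-fold with LPS in KO cells at 6 h, the slope of a control array's response on the KO response was 0.00645 for that replicate 3 and 0.514 to 0.703 for the other 4 arrays. Over 15 members at 24 h it was 0.105 for that replicate 2 and 0.419 to 0.660 for the others. Counts of control responses are therefore given with and without this later slide, and so are the values of some of the named members. The other control values include it. Of the control calls, 26 of 26 at 6 h and 18 of 19 at 24 h held without it.

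Slc1a2 had the widest response to LPS of all the members, and it came in KO cells. Its probe pairs with transcript NM_011393, and its annotated start lies on chromosome 2 (plus strand of GRCm38.p6). In unstimulated cells its levels were 0.44, 0.42, 0.17, 0.46 and 0.27 in control and 0.15, -0.04, 0.18, 0.18 and 0.18 in KO samples. The probe was well above background on 1 of 5 and 0 of 5 of these arrays. At 6 h of LPS the levels were 0.52, 0.74, 0.35, 1.11 and 0.74 in control and 3.78, 3.80, 3.93, 3.33 and 2.42 in KO samples. At 24 h they were 1.71, 0.77, 1.72, 1.15 and 0.75 in control and 4.58, 4.79, 4.76, 3.24 and 2.88 in KO samples. The groups overlapped before LPS and stood apart at both times after it, and KO replicates 4 and 5 were the lowest KO samples at 24 h. KO exceeded control by 2.76 at 6 h and 2.83 at 24 h on the log2 scale, after a difference of -0.22 in unstimulated cells. Control cells moved by 0.34 and 0.87 with LPS, and by 0.43 and 0.98 without the later slide. KO cells moved by 3.32 and 3.92. Because unstimulated KO arrays were not well above background, the KO response in Cy5 signal is a bound: at least 10.6-fold at 6 h and at least 18.9-fold at 24 h. Those folds set the mean normalised Cy5 signal of the stimulated arrays against the higher, on each unstimulated array, of the lowest signal well above background and the probe's own. They bound that signal alone, not the log2 ratio. Median centring gave KO responses of 2.84 and 3.54, and the slide as a block 3.60 and 2.43. Bounds given for other members below are in the same Cy5 signal. The difference between the 2 responses was 2.98 at 6 h and 3.05 at 24 h. The scanner software's own log ratios, which have no offset, gave KO responses of 6.01 and 6.07, control responses of 1.80 and 2.40 and a difference of -1.43 between unstimulated KO and control cells. Taking the slide as a block, the excess in KO cells was 3.44 at 6 h and 1.54 at 24 h. A second probe of Slc1a2 followed the first across the 30 arrays (Pearson correlation 0.989).

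The promoters of Slc1a2 and Slc2a6, the members with the largest rises in KO over control response at both times, are shown because Irf4 binds DNA with ETS factors at the ETS-IRF composite element (GGAA, any 2 bases, GAAA) and, alone or with other factors, at the interferon-stimulated response element (GAAA, any 2 bases, GAAA). Both run from 250 bases before the start to 50 after it, come from RefSeq (GRCm38.p6), read 5′ to 3′ along the gene, and carry matches in capitals. They lie at chr2:102706188-102706487 (plus strand) and chr2:27027949-27028248 (minus strand).
Slc1a2: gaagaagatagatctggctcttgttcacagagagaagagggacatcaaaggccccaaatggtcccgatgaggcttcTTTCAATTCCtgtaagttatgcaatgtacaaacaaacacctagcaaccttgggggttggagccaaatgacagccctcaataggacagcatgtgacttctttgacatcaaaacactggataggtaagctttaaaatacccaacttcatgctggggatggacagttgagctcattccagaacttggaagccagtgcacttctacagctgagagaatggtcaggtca
Slc2a6: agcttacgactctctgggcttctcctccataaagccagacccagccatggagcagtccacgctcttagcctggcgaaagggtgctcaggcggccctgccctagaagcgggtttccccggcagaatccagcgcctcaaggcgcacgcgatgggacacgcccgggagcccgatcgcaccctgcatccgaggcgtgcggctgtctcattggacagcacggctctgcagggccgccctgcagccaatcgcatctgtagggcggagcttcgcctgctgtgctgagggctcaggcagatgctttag
The Slc1a2 window held 1 match, TTTCAATTCC, the composite element on the minus strand, starting at position -174 counted from the annotated start. The Slc2a6 window held 0 matches to either element or to the AP-1 site TGANTCA. On both strands the composite element matched the promoters of 8 of the 157 members with an entry (5.10%) and 3.16% of 27025 genes. The interferon-stimulated response element, which can overlap the composite element, matched 3 members (1.91%) and 3.99% of genes, and TGANTCA matched 15 members (9.55%) and 8.97% of genes. A match is a run of letters, not a bound site.

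Slc2a6, a sugar carrier of the GLUT family found on lysosomes, started lower in KO cells and overlapped with control cells after LPS. Unstimulated levels were 3.54, 3.38, 3.33, 3.70 and 3.47 in control and 1.57, 2.14, 2.00, 2.11 and 1.92 in KO samples, with no overlap. At 6 h they were 4.81, 4.94, 3.93, 4.37 and 4.38 in control and 4.97, 4.90, 4.88, 4.57 and 4.22 in KO samples, which overlapped, as they did at 24 h (control 3.11 to 4.53, KO 3.57 to 4.48). The unstimulated difference was -1.53 ± 0.24 (limma, adjusted p = 5.32e-05). KO cells rose by 2.76 ± 0.24 at 6 h (adjusted p = 9.46e-09) and 2.12 ± 0.24 at 24 h (adjusted p = 7.05e-07), and control cells by 1.00 ± 0.24 at 6 h (adjusted p = 0.00569). The responses differed by 1.76 ± 0.33 (adjusted p = 0.00770) at 6 h and 1.79 ± 0.33 (adjusted p = 0.00743) at 24 h in limma. Both calls were lost with backgrounds taken as scanned, the 6 h call also with Cy5 alone or with the slide as a block, and the 24 h difference became -0.19 with the slide as a block.

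**Figure D1:**
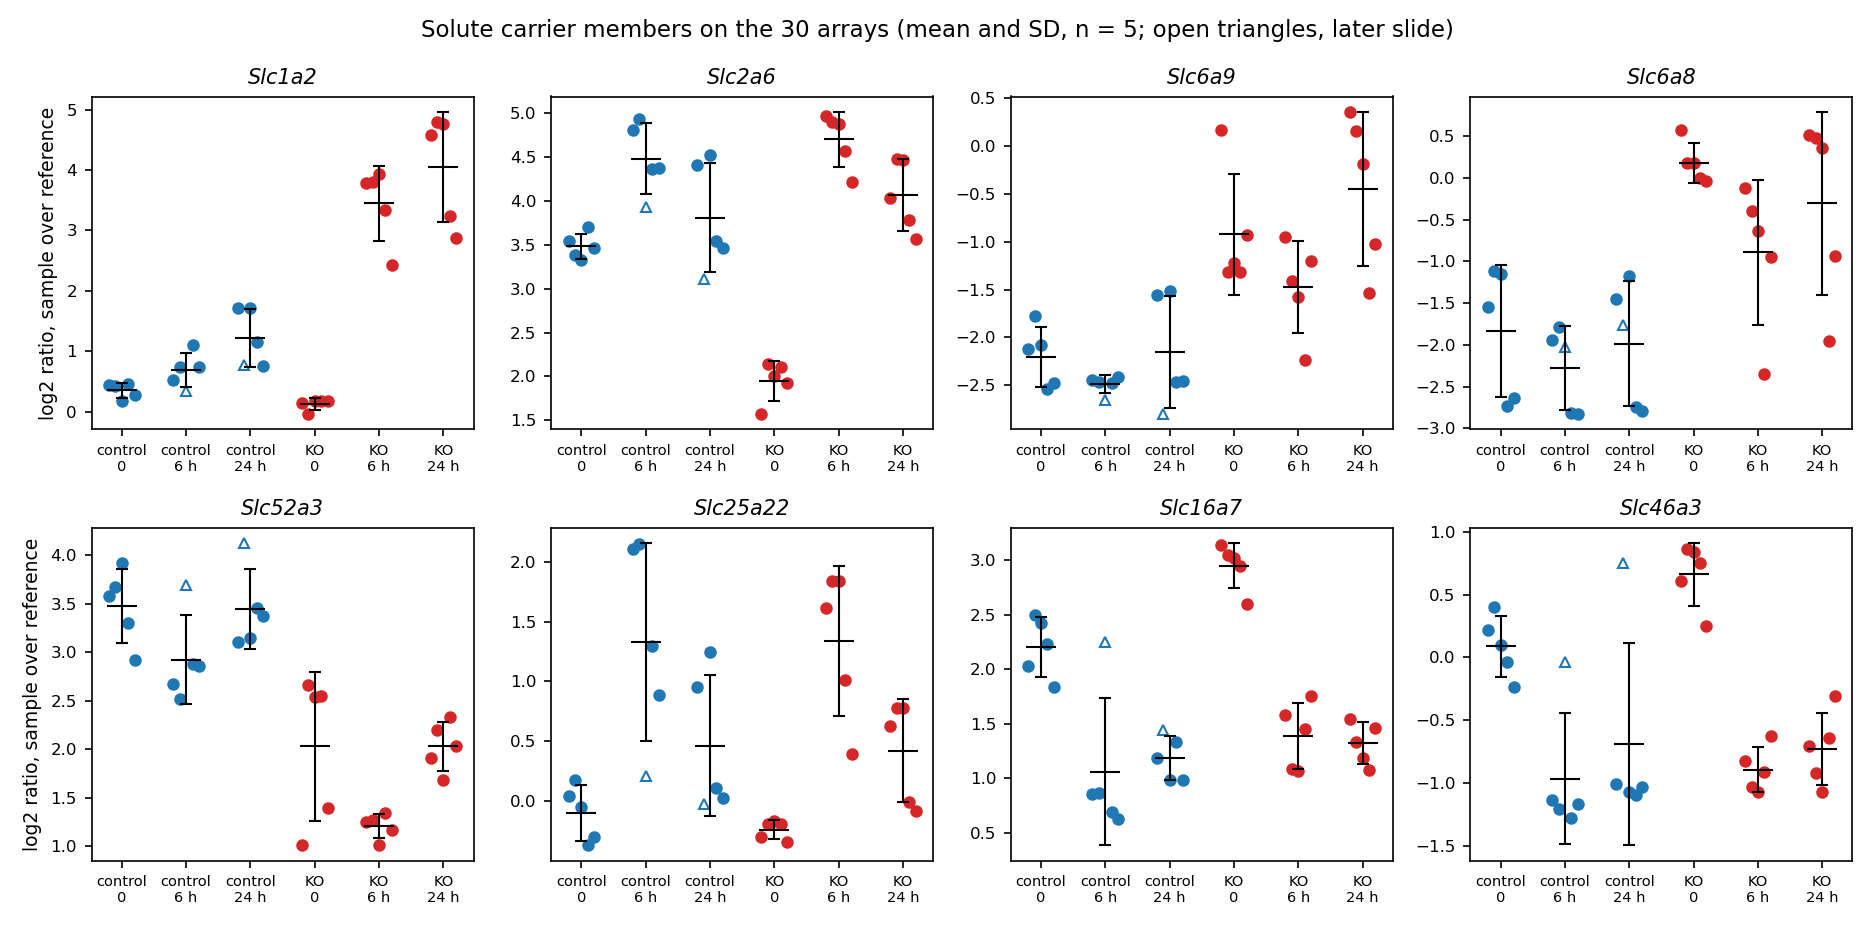
Levels (log2 ratio of sample over reference, vertical axes) of 8 members on all 30 arrays, by group along the horizontal axis; points are arrays, bars the mean and SD (n = 5), and open triangles the 2 control arrays of the later slide. Slc1a2 lies above 2 only in stimulated KO samples, and Slc2a6 is lowest in unstimulated KO samples.

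Between the genotypes, members went both ways. In unstimulated cells 37 of 207 members were called (22 higher in KO, 15 lower), 17.9% against a background of 14.1% of all genes tested. At 6 h of LPS 33 were called (18 higher, 15 lower), 15.9% against 12.1%, and at 24 h 42 were called (24 higher, 18 lower), 20.3% against 15.4%. The median member differed by 0.04, 0.06 and 0.09, and the median of all genes by -0.04, -0.01 and -0.01. Among the 157 members well above background everywhere, 34, 28 and 35 were called (21.7%, 17.8% and 22.3%). The share of all genes under that stricter filter is not given here, so nothing is read from these counts. Members classed with amino acids and peptides (36) were higher in KO cells in 6, 8 and 6 cases and lower in 0. Of all genes, 6.96%, 6.23% and 6.97% were called higher. Slc1a2 was 1 of the 8 and 1 of the 6 at 24 h. Slc36a3, also 1 of the 8, passed the filter only through KO cells at 6 h. The class also counts Slc3a2, a heavy chain that brings exchangers to the membrane, and Slc66a2, a PQ-loop protein. Mitochondrial carriers (32 members) were lower in 5, 4 and 6 cases and higher in 0, 3 and 2, where 7.13%, 5.88% and 8.44% of all genes were called lower. Of 23 metal carriers, 6, 3 and 3 were higher and 2 were lower at each time. The 3 comparisons use different samples. Of the called members, 9, 5 and 5 stayed called with each array left out in turn and under every other setting. Over all comparisons, 157 calls were made for the named members; with the slide as a block 63 of them held, 69 were lost and 25 turned direction, and median centring ended 64.

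**Figure D2:**
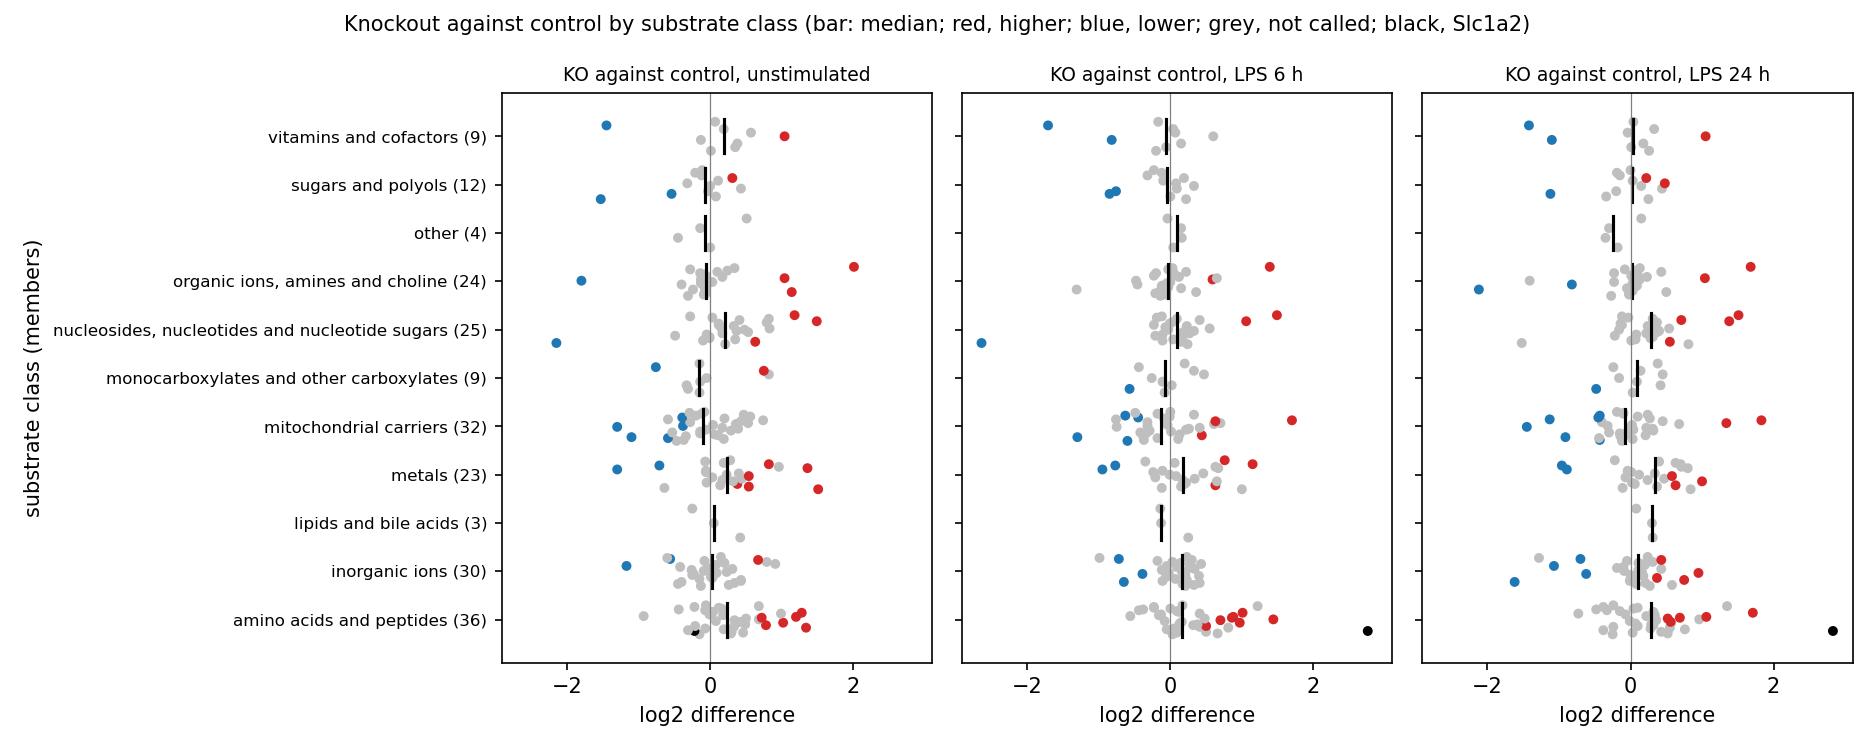
Log2 difference of KO against control (horizontal axes) for all 207 members, by substrate class, in unstimulated cells and at 6 h and 24 h of LPS. Each point is a member (red, called higher; blue, called lower; grey, not called; black, Slc1a2) and each bar a class median; amino acid carriers show red points and no blue ones in all 3 panels.

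The counts of members called with LPS depended on how the slides were handled, and no order of the genotypes is read from them. In control cells 26 members were called at 6 h (14 higher, 12 lower), 12.6% against a background of 11.7% (7.15% higher, 4.51% lower). At 24 h 19 were called (7 higher, 12 lower), 9.18% against 12.3% (7.23% higher, 5.07% lower). Without the later slide the control counts were 65 (27 higher, 38 lower; 31.4% against 25.6%) and 38 (21 higher, 17 lower; 18.4% against 19.9%). In KO cells 63 were called at 6 h (23 higher, 40 lower), 30.4% against 26.6% (14.2% higher, 12.4% lower), and 37 at 24 h (19 higher, 18 lower), 17.9% against 18.1% (10.2% higher, 7.84% lower). Without the later slide the KO counts were 80 (38.6% against 32.1%) and 48 (23.2% against 24.1%). With the slide as a block the order at 6 h turned round, with 63 members called in control and 15 in KO cells (34.4% and 7.93% of all genes). On the slides that carry both treatments (2 against 2 and 1 against 3 arrays) all 26 control and all 63 KO calls at 6 h had the direction of the fit; these arrays are part of that fit, so this is no independent check. Without the later slide the control responses at 6 h were 1.14 for Slc2a6, 0.90 for Slc6a12, -1.44 for Slc16a7, -1.23 for Slc37a2 and 1.71 for Slc25a22. At 24 h they were 1.20 for Slc6a12, -1.08 for Slc16a7 and -3.17 for Slc36a2; none of these calls was lost. In the comparisons whose same-numbered samples all correlated above 0.1, the replicate number was also taken as a block. The counts were then 44 for control at 24 h (24.5% of all genes) and 105 for KO at 6 h (42.4% of all genes). The difference between the responses themselves was called for Slc2a6 at both times and for Slc45a2 and Slc12a7 at 24 h. With Slc1a2, chosen for this pattern, and Slc36a3, which passed the filter only through KO cells at 6 h, the counts were 3 at 6 h (1.45% against 0.435% of all genes) and 4 at 24 h (1.93% against 0.879%). Nothing is read from those shares; among the 157 members well above background everywhere the counts were 1 and 2. Since the genotypes' unstimulated samples enter both the KO differences and the responses, these values are not independent of each other.

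**Figure D3:**
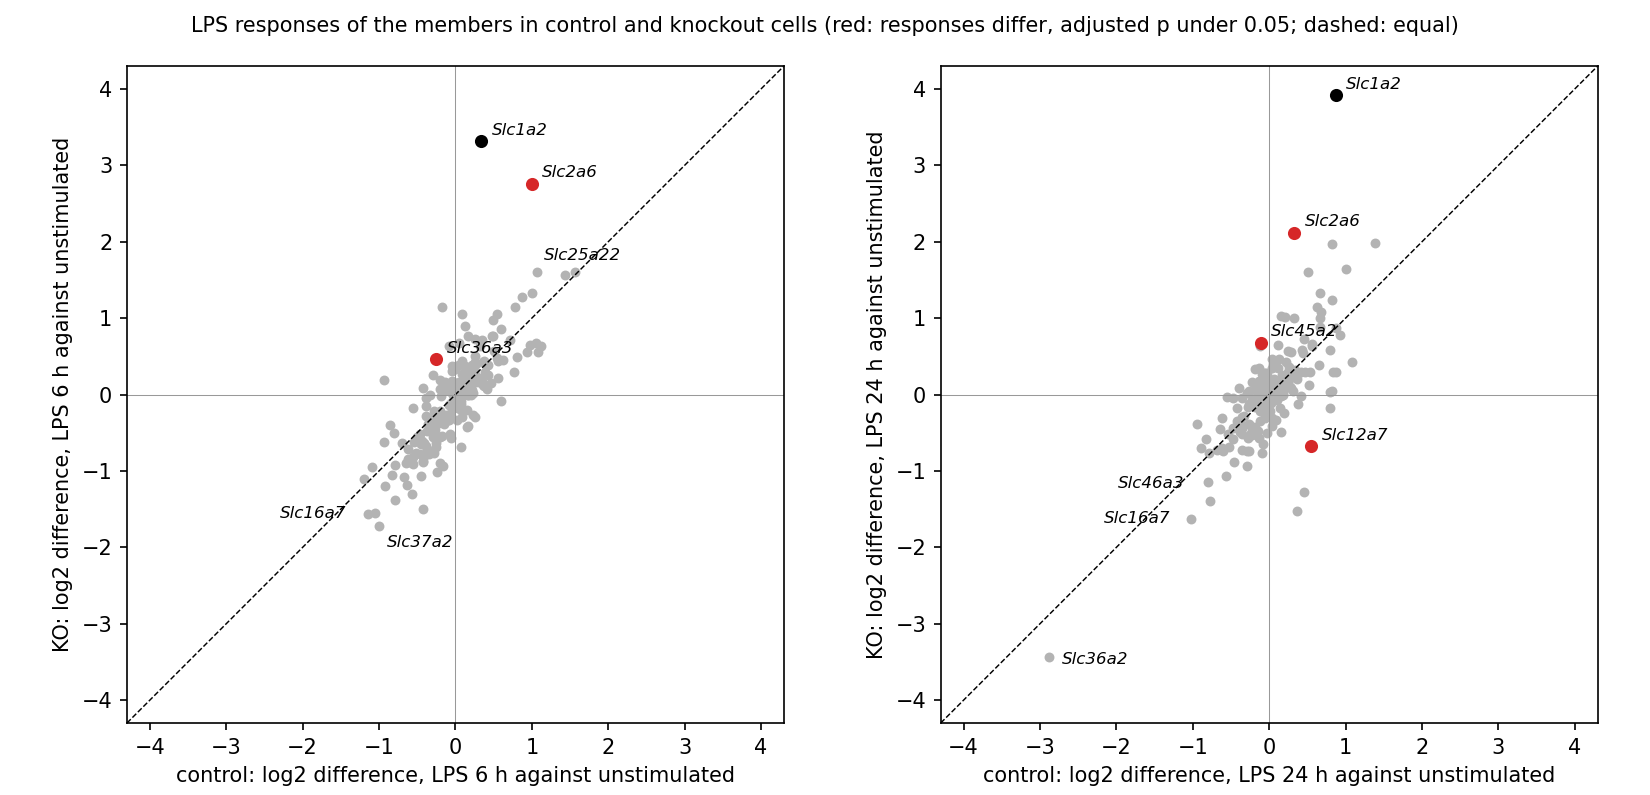
Log2 response to LPS in KO cells (vertical axes) against control cells (horizontal axes) at 6 h and 24 h, 1 point per member (207). Red points are members whose responses limma called different (Slc36a3 among them passed the filter only through KO cells at 6 h). Black is Slc1a2, singled out for its pattern and shown without its call. The dashed line marks equal responses, and Slc1a2 and Slc2a6 lie above it at both times.

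Of the amino acid carriers called between the genotypes, Slc6a9 and Slc6a12 were higher in KO cells at all 3 times. For Slc6a9, the plasma membrane glycine carrier, levels were -2.12, -1.78, -2.08, -2.54 and -2.48 in unstimulated control and 0.17, -1.32, -1.22, -1.32 and -0.93 in unstimulated KO samples. The groups did not overlap, and KO replicate 1 was the highest sample. At 24 h they were -1.56, -2.80, -1.51, -2.46 and -2.45 in control and 0.35, 0.16, -0.19, -1.54 and -1.02 in KO samples, where KO replicate 4 fell within the control range. The differences were 1.28 ± 0.33 unstimulated (limma, adjusted p = 0.00775), 1.01 ± 0.33 at 6 h (adjusted p = 0.0401) and 1.71 ± 0.33 at 24 h (adjusted p = 0.000596). The 6 h call was lost without the later slide (0.97, limma adjusted p = 0.0610) and without any of 9 single arrays.

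Slc6a12, which carries betaine and GABA, was higher in KO cells at each time and rose with LPS in both genotypes. Its levels were 1.40, 1.29, 1.10, 1.67 and 1.52 in unstimulated control and 2.75, 2.53, 2.67, 2.45 and 2.60 in unstimulated KO samples. They were 2.37, 2.49, 2.65, 2.07 and 2.27 in control and 3.53, 3.45, 3.45, 2.81 and 3.02 in KO samples at 6 h. Neither time showed an overlap, and the same held at 24 h (control 1.22 to 2.88, KO 3.09 to 3.57). KO exceeded control by 1.20 ± 0.21, 0.88 ± 0.21 and 1.06 ± 0.21 (limma, adjusted p = 0.000223, 0.00527 and 0.000841). LPS raised it by 0.97 ± 0.21 and 0.93 ± 0.21 in control and by 0.65 ± 0.21 and 0.78 ± 0.21 in KO cells; any of 3 arrays ended the KO call at 6 h. Slc6a13, a related GABA carrier, rose in KO cells at 24 h, from 1.81, 2.10, 1.71, 2.28 and 2.31 to 3.59, 3.76, 3.68, 4.61 and 4.42, without overlap. That is 1.97 ± 0.40 (limma, adjusted p = 0.000846); in control cells the difference was 0.82, and 1.12 without the later slide, which limma then called (adjusted p = 0.0437). Slc32a1, the vesicular carrier of GABA and glycine, was higher by 1.34 ± 0.36 in unstimulated KO cells (limma, adjusted p = 0.0105). It fell to 1.04 and lost the call without KO replicate 1 (3.31; replicate 5 was 2.98 and the other 3 were 1.41 to 1.46).

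Slc36a2, a proton-coupled carrier of glycine and proline, had the deepest fall with LPS. At 24 h its levels were 0.71, 1.77, 0.69, -0.30 and 0.06 in control and 0.37, 0.66, 0.35, 0.06 and 0.29 in KO samples. Before LPS they were 4.26, 4.53, 4.68, 2.24 and 1.59 in control and 2.55, 4.95, 4.79, 5.09 and 1.56 in KO samples. Control replicates 4 and 5 and KO replicates 1 and 5 were low before LPS, and the control groups overlapped. The falls were -2.88 ± 0.78 in control (limma, adjusted p = 0.0158) and -3.44 ± 0.78 in KO cells (adjusted p = 0.00256). The control value turned to 1.58 with the slide as a block. Slc36a3, of the same family, was marked on 5 of 5 KO arrays and 0 of 5 control arrays at 6 h, a bound of at least 1.68-fold; it entered the members through that group.

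Slc3a2, the CD98 heavy chain that brings several amino acid exchangers to the membrane, was among the 5 brightest members (mean log2 Cy5 signal 13.82). At 6 h its levels were 0.05, 0.09, -0.92, -0.67 and -1.33 in control and 1.40, 1.5, 1.32, 0.03 and 0.20 in KO samples; 1 KO sample lay within the control range. The difference was 1.44 ± 0.35 (limma, adjusted p = 0.00667), and 0.68 ± 0.35 and 0.96 ± 0.35 in unstimulated cells and at 24 h were not called. Slc66a2, a PQ-loop protein, was higher in KO cells by 0.72, 0.86 and 0.69 (SE 0.15 each) and fell with LPS by 1.09 and 0.68 in control and by 0.95 and 0.72 in KO cells on the log2 scale; all 7 were called by limma. Slc1a5, a glutamine carrier, fell by 0.95 ± 0.28 in control cells at 24 h and by 0.89 ± 0.28 in KO cells at 6 h (limma, adjusted p = 0.0255 and 0.0186). Leaving out KO LPS 6 h replicate 4 moved the latter's adjusted p to 0.0533, and any of 6 arrays ended the former. Slc6a6, the taurine carrier, another of the brightest members (13.58), was called in 0 comparisons, with differences of -1.28 to 0.99 (SE 0.70).

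Slc6a8, the creatine carrier, was the member that differed most upward in unstimulated KO cells. Its levels were -1.55, -1.11, -1.15, -2.73 and -2.64 in control and 0.58, 0.18, 0.18, 0.00 and -0.04 in KO samples, and the groups stood apart. At 6 h they were -1.94, -1.79, -2.03, -2.82 and -2.83 in control and -0.12, -0.40, -0.64, -2.35 and -0.95 in KO samples, and at 24 h -1.45, -1.76, -1.17, -2.75 and -2.79 in control and 0.52, 0.48, 0.36, -1.95 and -0.93 in KO samples. KO replicate 4 lay within the control range at both times. The differences were 2.01 ± 0.46 (limma, adjusted p = 0.00313), 1.39 ± 0.46 (adjusted p = 0.0457) and 1.68 ± 0.46 (adjusted p = 0.0119). The 6 h call was lost without the later slide (1.45, limma adjusted p = 0.0537) and without any of 8 single arrays; the 24 h value turned to -1.47 with the slide as a block. Slc18a1, a vesicular monoamine carrier, was lower in KO cells at 24 h, with levels of 1.84, 4.42, 0.98, 3.71 and 3.77 in control and 0.64, 0.89, 0.94, 0.87 and 0.78 in KO samples. That is -2.12 ± 0.48 (limma, adjusted p = 0.00276), the groups did not overlap, and the slide block turned it to 0.55. It fell in KO cells with LPS by 1.5 ± 0.48 at 6 h and 1.52 ± 0.48 at 24 h, the latter call being lost without KO unstimulated replicate 1 or 3. Slc22a23, a carrier with no settled substrate, was lower by 1.80 ± 0.54 in unstimulated KO cells (limma, adjusted p = 0.0252). Leaving out any of 5 arrays ended this call, with values of -2.13 to -1.36, and the slide block turned it to 1.98, with KO higher.

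Slc52a3, which carries riboflavin, was lower in KO cells at every time. Levels were 3.58, 3.68, 3.92, 3.30 and 2.92 in control and 1.01, 2.66, 2.54, 2.55 and 1.40 in KO samples before LPS. They were 2.67, 2.52, 3.70, 2.88 and 2.86 in control and 1.25, 1.27, 1.01, 1.34 and 1.17 in KO samples at 6 h, and 3.11, 4.13, 3.15, 3.46 and 3.38 in control and 1.91, 2.20, 1.68, 2.33 and 2.03 in KO samples at 24 h. The genotypes overlapped at no time. The differences were -1.45 ± 0.27 (limma, adjusted p = 0.000505), -1.71 ± 0.27 (adjusted p = 0.000116) and -1.42 ± 0.27 (adjusted p = 0.000643). A second probe followed it (correlation 0.968).

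Of the 9 vitamin and cofactor carriers, 5 fell with LPS in KO cells at 6 h and 0 rose, against 12.4% of all genes called lower. Slc46a3, a lysosomal carrier, had levels of 0.61, 0.86, 0.84, 0.75 and 0.25 in unstimulated KO samples. After LPS they were -0.83, -1.03, -1.07, -0.91 and -0.63 at 6 h and -0.71, -0.92, -1.07, -0.64 and -0.31 at 24 h. Both falls were without overlap, at -1.55 ± 0.27 (limma, adjusted p = 9.32e-05) and -1.39 ± 0.27 (adjusted p = 0.000545). In control cells it went from 0.22, 0.40, 0.10, -0.04 and -0.24 to -1.14, -1.21, -0.04, -1.28 and -1.17 at 6 h, where replicate 3, of the later slide, stayed within the unstimulated range. That fall was -1.05 ± 0.27 (limma, adjusted p = 0.0101). At 24 h the control difference of -0.78 was not called, and without the later slide it was -1.14 (limma, adjusted p = 2.1e-06). Slc33a1, which brings acetyl-CoA into the endoplasmic reticulum, was lower in KO cells by 1.10 ± 0.26 at 24 h (limma, adjusted p = 0.00481) and by 0.82 ± 0.26 at 6 h, a call that any of 6 arrays ended. Slc19a1, a folate carrier, fell by 0.83 ± 0.24 in control cells at 24 h (limma, adjusted p = 0.0222); its probes disagreed (correlation -0.186), their mean gave -0.39, and any of 4 arrays ended the call.

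Nucleoside and nucleobase carriers differed both ways. Slc28a3, a sodium-coupled nucleoside carrier, was lower in KO cells, with levels of 2.98, 1.18, 1.33, 3.82 and 3.46 in control and 0.44, 0.61, 0.28, 0.14 and 0.52 in KO samples before LPS. They were 3.02, 2.14, 3.84, 4.57 and 4.80 in control and 0.29, 0.22, 0.26, 2.42 and 1.97 in KO samples at 6 h, where the groups overlapped. The differences were -2.15 ± 0.60 (limma, adjusted p = 0.0146) and -2.64 ± 0.60 (adjusted p = 0.00367), and -1.52 ± 0.60 at 24 h was not called (adjusted p = 0.0894). Without control unstimulated replicate 4 the first was -1.84 and its adjusted p 0.0576. Slc28a2, of the same family, rose in KO cells at 24 h, from 0.88, -0.03, -0.12, -0.23 and 0.87 to 2.29, 2.54, 2.97, 1.61 and 1.86, without overlap. That is 1.98 ± 0.60 (limma, adjusted p = 0.0207); it became 1.80 and lost the call without KO LPS 24 h replicate 3, and the slide block turned it to -2.63. Its control responses of 1.56 and 1.38 were not called, and were 1.89 and 1.88 and called without the later slide. Slc43a3, which carries purine nucleobases, was higher in KO cells at each time. Levels were -1.71, -1.56, -1.17, -1.97 and -1.75 in control and 0.08, 0.28, -0.37, -0.11 and -0.57 in KO samples at 6 h, without overlap. Its differences were 1.18 ± 0.34, 1.49 ± 0.34 and 1.51 ± 0.34 (limma, adjusted p = 0.0185, 0.00372 and 0.00271); the first was 1.03 and not called without KO unstimulated replicate 1. Slc35e4, of the nucleotide sugar family and with no settled substrate, was higher in KO cells by 1.49 ± 0.25, 1.06 ± 0.25 and 1.38 ± 0.25 (limma, adjusted p = 0.000136, 0.00486 and 0.000334). Slc35f6 fell in KO cells by 1.30 ± 0.37 at 6 h and 1.07 ± 0.37 at 24 h (limma, adjusted p = 0.0105 and 0.0466), and any of 9 arrays ended the latter.

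Zinc carriers went both ways between the genotypes. Slc30a1, which exports zinc at the plasma membrane, was higher in unstimulated KO cells, with levels of 0.09, 0.54, 0.39, -0.95 and -0.64 in control and 1.86, 1.21, 1.27, 1.48 and 1.14 in KO samples. That is 1.51 ± 0.39 (limma, adjusted p = 0.00801), and the groups stood apart. Slc39a6, a zinc importer, was higher by 1.36 ± 0.29 (limma, adjusted p = 0.00196), also without overlap. Slc39a4, another zinc importer, was lower in KO cells, with levels of 1.13, 0.67, 0.78, 1.67 and 1.20 in control and -0.86, -0.06, -0.07, -0.03 and -0.04 in KO samples before LPS. The differences were -1.30 ± 0.25, -0.95 ± 0.25 and -0.89 ± 0.25 (limma, adjusted p = 0.000581, 0.0107 and 0.0144). The last was -0.78 and not called without control LPS 24 h replicate 2, and turned to 0.59, with KO higher, with the slide as a block. In KO cells Slc39a4 rose at 24 h by 1.24 ± 0.25, to 1.09, 1.04, 0.86, 1.04 and 1.12. Slc31a1, the copper importer, rose in KO cells from 1.64, 1.20, 1.20, 1.25 and 1.84 to 2.55, 2.65, 2.63, 3.06 and 2.90 at 6 h, without overlap. Its responses were 1.33 ± 0.28 at both times in KO cells (limma, adjusted p = 0.000653 and 0.00105) and 1.00 ± 0.28 at 6 h in control cells (adjusted p = 0.0164), which was lost without control unstimulated replicate 2 or 3. KO exceeded control by 1.00 ± 0.28 at 24 h, and by 0.66 without control LPS 24 h replicate 2, where limma's adjusted p was 0.0516. Slc41a2, a magnesium carrier, was higher in KO cells by 1.15 ± 0.28 at 6 h (limma, adjusted p = 0.00601).

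The named mitochondrial carriers that were lower in KO cells included Slc25a29, Slc25a13, Slc25a38 and Slc25a12, all of amino acids. For Slc25a12 the call was in unstimulated cells, and it held in 5 of 10 fits with 1 array left out. Slc25a29, a carrier of basic amino acids, had levels of 0.76, 0.87, 0.82, 0.62 and 0.20 in control and -0.83, -0.76, -0.45, -0.46 and -0.72 in KO samples before LPS, with no overlap. The difference was -1.30 ± 0.31 (limma, adjusted p = 0.00440). At 24 h the difference was -1.45 ± 0.31 (limma, adjusted p = 0.00162), with control samples from -0.04 to 2.35 and KO samples from -0.77 to -0.49. Slc25a13, an aspartate and glutamate carrier of the malate-aspartate shuttle, was lower by 1.10 ± 0.31, 1.30 ± 0.31 and 0.91 ± 0.31 (limma, adjusted p = 0.0146, 0.00505 and 0.0425). The first was lost without control unstimulated replicate 4 (adjusted p 0.0537). The third was lost without the later slide (-0.80, limma adjusted p = 0.103) or any of 6 arrays, and turned to 1.49, with KO higher, with the slide as a block. Slc25a38, which brings glycine in for heme synthesis, was lower by 1.13 ± 0.27 at 24 h (limma, adjusted p = 0.00419); the slide as a block turned the difference to 0.96, with KO higher. Slc25a4, an ADP/ATP carrier and among the brightest members (15.11), was lower by 0.39, 0.45 and 0.45 (SE 0.11, limma adjusted p = 0.0148, 0.00621 and 0.00570), and median centring ended all 3.

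Slc25a37, mitoferrin, which brings iron into mitochondria, went the other way. At 6 h its levels were -2.80, -2.56, -3.58, -3.41 and -3.11 in control and -0.95, -0.82, -0.82, -2.37 and -1.97 in KO samples, without overlap. At 24 h they were -1.94, -3.14, -1.81, -3.06 and -3.41 in control and -0.06, 0.07, 0.13, -2.40 and -1.98 in KO samples, where KO replicates 4 and 5 lay in the control range. The differences were 1.70 ± 0.43 (limma, adjusted p = 0.00886) and 1.83 ± 0.43 (adjusted p = 0.00411). The mean of its probes gave 1.08 at both times, and the slide block gave 3.45 and -1.02. In KO cells it rose by 1.60 ± 0.43 at 24 h (limma, adjusted p = 0.00989; -1.96 with the slide as a block).

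With LPS, the mitochondrial glutamate carrier Slc25a22 rose early in both genotypes. At 6 h it went from 0.04, 0.18, -0.05, -0.37 and -0.30 to 2.11, 2.15, 0.21, 1.30 and 0.89 in control samples, the lowest being the array of the later slide. In KO samples it went from -0.30, -0.19, -0.17, -0.19 and -0.34 to 1.61, 1.84, 1.84, 1.01 and 0.39. Neither genotype showed an overlap. The rises were 1.43 ± 0.32 (limma, adjusted p = 0.00403) and 1.57 ± 0.32 (adjusted p = 0.000564), and the genotypes differed by 0.01 at this time. At 24 h the responses of 0.56 and 0.66 were not called. Slc25a12, the other aspartate and glutamate carrier, rose at 6 h by 0.87 ± 0.18 in control and 1.28 ± 0.18 in KO cells (limma, adjusted p = 0.00266 and 9.07e-06). The ADP/ATP carrier Slc25a5, the brightest member (16.39), fell by 0.89 ± 0.19 in control cells at 24 h and by 0.65 ± 0.19 and 0.70 ± 0.19 in KO cells at 6 h and 24 h (limma, adjusted p = 0.00277, 0.0107 and 0.00970); median centring ended the KO calls. Slc25a24, an ATP-magnesium and phosphate carrier, fell in KO cells by 1.38 ± 0.35 at 6 h (limma, adjusted p = 0.00452). Slc25a11, the oxoglutarate and malate carrier, among the brightest (13.54), fell there by 0.62 ± 0.19 (limma, adjusted p = 0.0162), or 0.51 and not called without KO LPS 6 h replicate 4.

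Of the 3 named sugar phosphate carriers, Slc37a2 and Slc37a4 fell early with LPS. Slc37a2, which exchanges glucose 6-phosphate for phosphate, went in KO cells from 1.88, 1.96, 1.84, 1.71 and 1.45 to 0.45, -0.25, -0.32, 0.05 and 0.29 at 6 h and was back at 1.63, 1.81, 1.82, 1.68 and 1.55 at 24 h. In control cells it went from 1.96, 2.44, 2.29, 1.41 and 0.91 to 0.62, 0.62, 1.73, 0.54 and 0.49. The falls at 6 h were -1.72 ± 0.25 (limma, adjusted p = 9.1e-06) in KO cells, and control cells fell by 1.00 ± 0.25 (adjusted p = 0.00811). Its KO difference of -0.76 ± 0.25 at 6 h was -0.52 and not called without control LPS 6 h replicate 3, and any of 6 arrays ended the call. Slc37a4, the glucose 6-phosphate carrier of the endoplasmic reticulum, fell by 0.94 ± 0.15 in control and 0.62 ± 0.15 in KO cells at 6 h (limma, adjusted p = 0.000368 and 0.00214). Slc37a1 was lower in KO cells by 0.54, 0.85 and 1.12 (SE 0.16, limma adjusted p = 0.0202, 0.000485 and 1.49e-05), and its control cells rose by 0.87 ± 0.16 at 24 h. The slide block turned the first 2 to 0.47 and 0.26, and KO unstimulated replicates 1 and 5 each decided the first. Slc45a2, marked on 2 of 5 control and 5 of 5 KO arrays at 24 h, differed in its 24 h response by 0.80 ± 0.19 (limma, adjusted p = 0.0370). Any of 12 arrays ended that call, and the slide block gave -0.21.

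Among monocarboxylate carriers, Slc16a7, which carries lactate and pyruvate, fell with LPS in both genotypes. KO levels went from 3.14, 3.05, 3.02, 2.95 and 2.60 to 1.58, 1.09, 1.07, 1.45 and 1.76 at 6 h and 1.55, 1.33, 1.19, 1.08 and 1.46 at 24 h, with no overlap. Control levels went from 2.03, 2.50, 2.43, 2.23 and 1.84 to 0.86, 0.87, 2.25, 0.69 and 0.63 at 6 h and 1.19, 1.44, 0.99, 1.33 and 0.99 at 24 h, where only the later slide's array overlapped at 6 h. The falls were -1.56 ± 0.22 and -1.63 ± 0.22 in KO (limma, adjusted p = 6.07e-06 and 8.18e-06) and -1.15 ± 0.22 and -1.02 ± 0.22 in control cells (adjusted p = 0.00139 and 0.00304). KO exceeded control by 0.75 ± 0.22 before LPS (limma, adjusted p = 0.0199), a call that any of 3 arrays ended. Slc16a6 fell in KO cells by 0.91 ± 0.28 at 6 h (limma, adjusted p = 0.0170), and Slc16a8 was lower in unstimulated KO cells by 0.76 ± 0.23 (adjusted p = 0.0247); KO unstimulated replicate 5 or KO LPS 6 h replicate 4 each decided the former and any of 4 arrays the latter. Slc13a3, a dicarboxylate carrier, was marked on 5 of 5 control and 0 of 5 KO arrays at 6 h, a bound of at least 1.43-fold; it entered the members through the control group.

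Of 30 inorganic ion carriers, 1, 0 and 4 were higher and 2, 3 and 4 lower in KO cells unstimulated, at 6 h and at 24 h (6.96%, 6.23% and 6.97% of all genes were called higher and 7.13%, 5.88% and 8.44% lower). The 1 unstimulated rise was Slc9a4, which passed the filter only through unstimulated KO cells, and it was also among the 4 at 24 h. Slc26a4, higher at 24 h, was marked on 5 of 5 KO arrays there and on 0 of 5 unstimulated KO arrays. Nothing is read from these rises. Slc12a7, a potassium-chloride cotransporter, was lower in KO cells at 24 h, with levels of 0.79, 1.34, 1.01, 0.67 and 0.43 in control and -0.70, -0.60, -0.82, -0.82 and -0.93 in KO samples. The groups stood far apart, by -1.62 ± 0.18 (limma, adjusted p = 6.63e-07). KO cells fell by 0.68 ± 0.18 with LPS at 24 h while control cells stood at 0.55 ± 0.18 above their start. The control call was lost without the later slide (0.42, limma adjusted p = 0.0958) or any of 6 arrays. The responses differed by -1.22 ± 0.25 (limma, adjusted p = 0.0147), which median centring ended. Slc4a8, a sodium-driven bicarbonate carrier, was lower in KO cells by 1.17 ± 0.37 before LPS and 1.07 ± 0.37 at 24 h (limma, adjusted p = 0.0313 and 0.0484). The 24 h value was -0.60 without control LPS 24 h replicate 2, and the unstimulated value turned to 0.08 with the slide as a block; any of 5 and any of 6 arrays ended the calls. Slc26a11, a sulfate carrier, fell in control cells by 0.86 ± 0.20 at 6 h (limma, adjusted p = 0.00463). Slc9a4, a sodium-proton exchanger, was marked on 5 of 5 KO and 0 of 5 control arrays before LPS, a bound of at least 1.67-fold, and entered through that group. The organelle exchanger Slc9a7 had differences of -1.28 to 1.09 (SE 0.55) and was not called.

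The fatty acid carriers Slc27a1 and Slc27a4 moved by -0.35 ± 0.12 at 6 h and 0.46 ± 0.16 at 24 h in KO cells (limma, adjusted p = 0.0294 and 0.0479), and any of 7 arrays ended either call. Slc10a3, of the bile acid family, was called in 0 comparisons, with differences of -0.38 to 0.42 (SE 0.15). The scaffold protein Slc9a3r2, which carries an Slc name without being a carrier, fell with LPS in KO cells, by 1.19 ± 0.18 at 6 h and 1.15 ± 0.18 at 24 h (limma, adjusted p = 1.61e-05 and 4.93e-05), and in control cells by 0.64 and 0.80; any of 4 arrays ended the control call at 6 h. Its relative Slc9a3r1 rose by 0.76 ± 0.23 and Slc7a6os, also no carrier, by 0.77 ± 0.25 in KO cells at 6 h (limma, adjusted p = 0.0151 and 0.0236). KO LPS 6 h replicates 2 and 3 each decided the first, and any of 3 arrays the second.

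**Figure D4:**
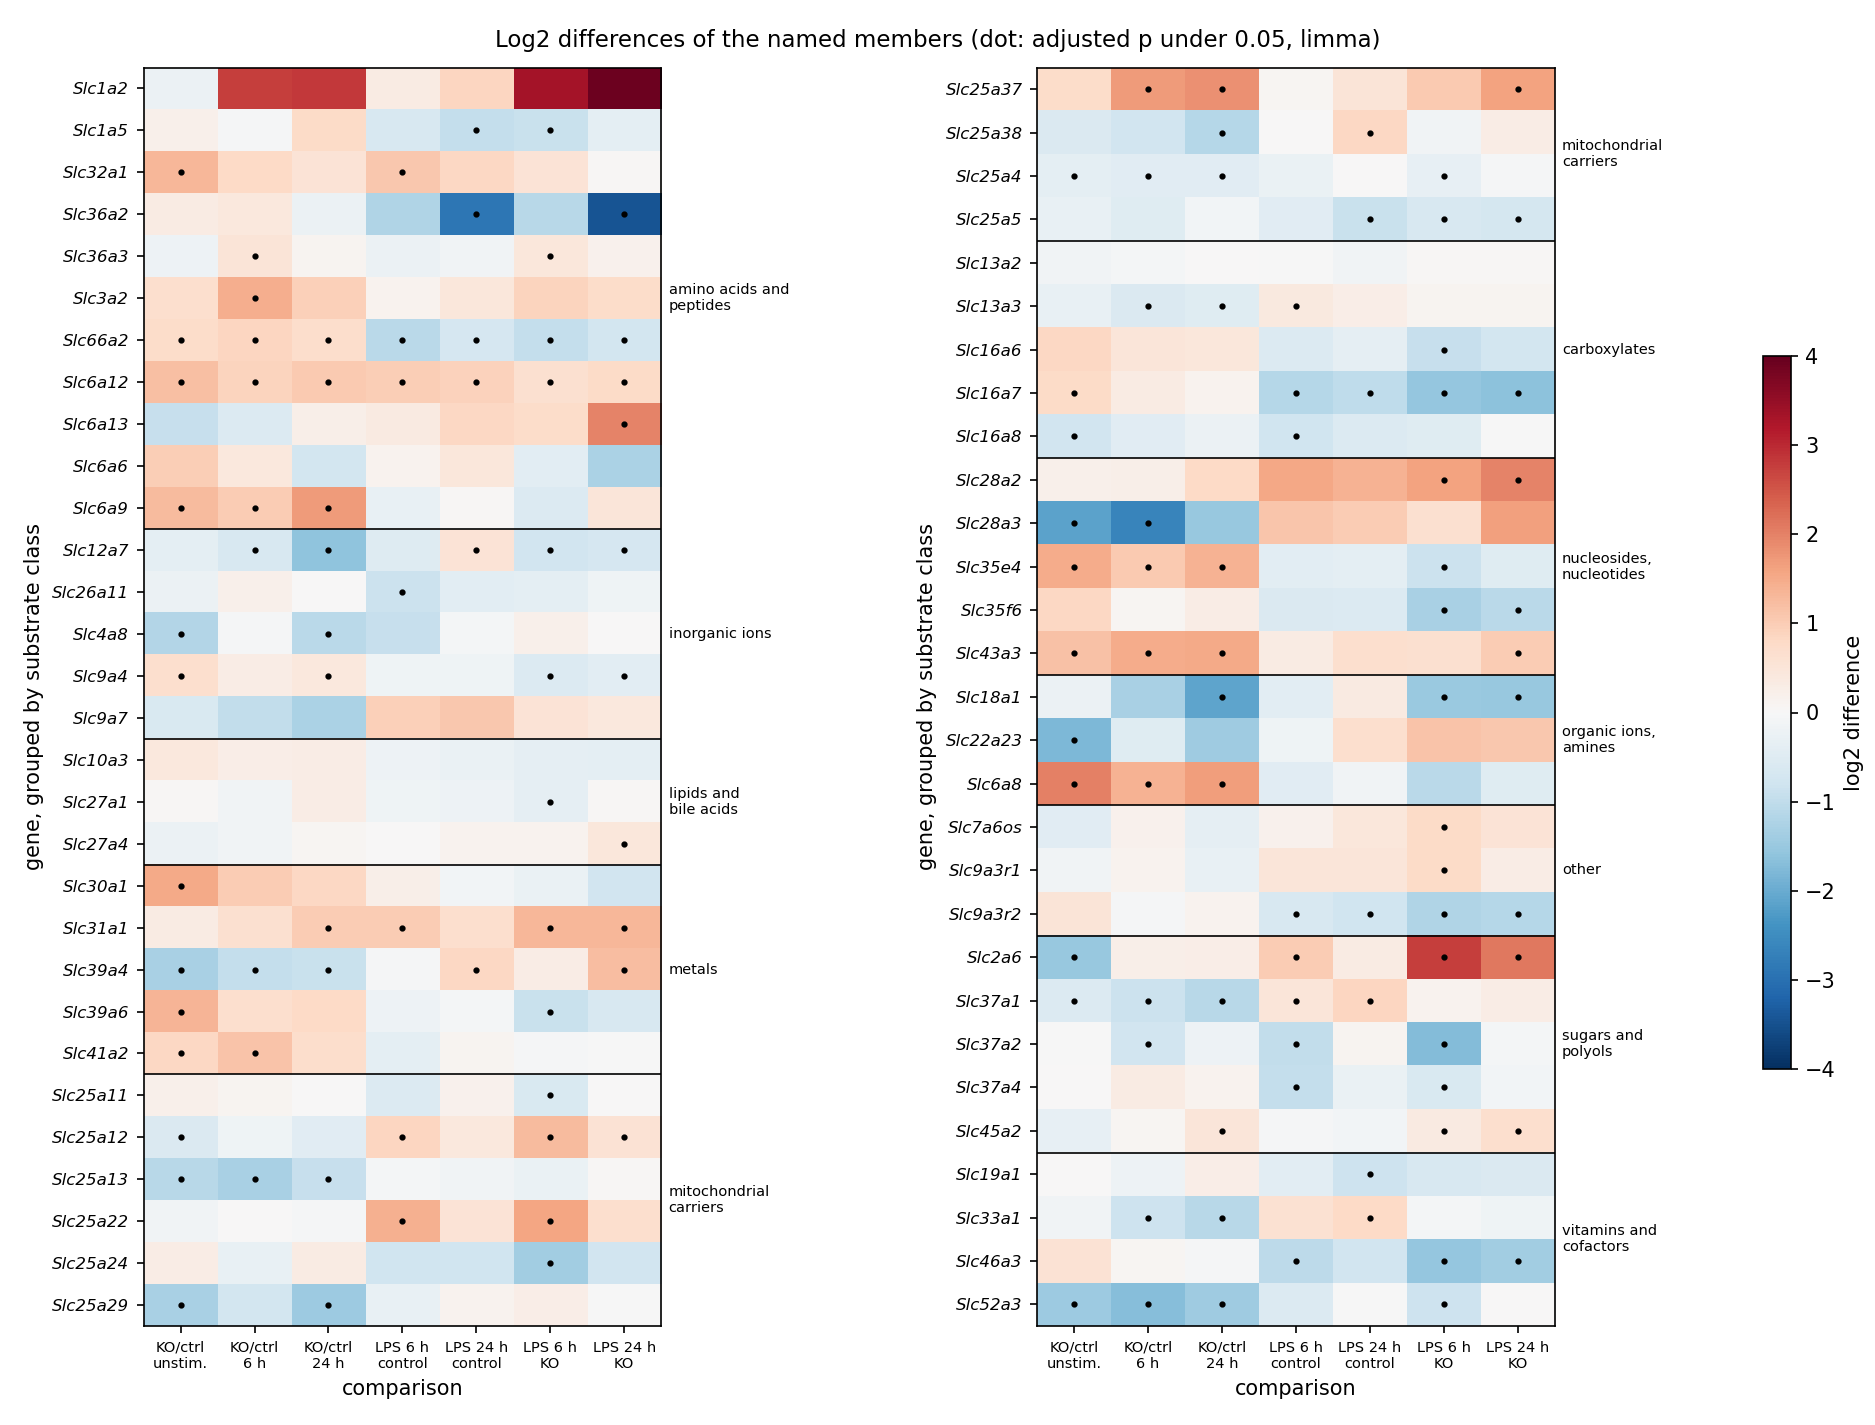
Log2 differences (colour, red higher and blue lower) of 59 named members (rows, grouped by substrate class) in 7 comparisons (columns). Dots mark limma calls. Slc1a2 was singled out for its pattern, so its calls are not marked. Slc36a2 shows the deepest blue, at 24 h of LPS.

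Carriers without an Slc symbol, the proteins that drive or hold carriers, and glutamate and glutathione enzymes were read as 3 further lists. Of 31 carriers tested, 6, 2 and 4 were higher and 1, 0 and 1 lower in KO cells, where 6.96%, 6.23% and 6.97% of all genes were higher and 7.13%, 5.88% and 8.44% lower. With LPS 11 fell and 1 rose in KO cells at 6 h (12.4% and 14.2% of all genes). Slco3a1, an organic anion carrier, rose by 3.17 ± 0.71 and 2.50 ± 0.71 in control and 4.99 ± 0.71 and 3.68 ± 0.71 in KO cells (limma, adjusted p = 0.00394, 0.0196, 7.8e-06 and 0.000498); its control values without the later slide were 3.88 and 2.55. Its relative Slco2b1 changed by -1.97 ± 0.46 and -2.05 ± 0.46 in control and by -3.18 ± 0.46 and -3.22 ± 0.46 in KO cells, all called, and by -2.39 and -2.42 in control cells without the later slide. Flvcr2, a choline carrier, was higher in unstimulated KO cells by 2.58 ± 0.28 (limma, adjusted p = 4.09e-07) and fell with LPS there by 2.35 ± 0.28 and 2.44 ± 0.28. Its responses differed from those of control cells by -2.21 ± 0.39 and -2.24 ± 0.39 (limma, adjusted p = 0.00463 and 0.00489).

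Of 14 partners and drivers, 3, 2 and 2 were higher and 2, 0 and 2 lower in KO cells, against the same shares of all genes (6.96%, 6.23% and 6.97% higher; 7.13%, 5.88% and 8.44% lower). Sgk1, a kinase that raises the surface level of many carriers, was higher by 3.17 ± 0.58, 2.87 ± 0.58 and 2.74 ± 0.58 (limma, adjusted p = 0.000406, 0.00140 and 0.00172). Atp1b1, a subunit of the sodium pump, was higher in KO cells after LPS, by 1.61 ± 0.23 at 6 h and 2.03 ± 0.23 at 24 h. It rose in KO cells by 1.48 ± 0.23 and 1.88 ± 0.23, and its 24 h responses differed by 1.79 ± 0.33 (limma, adjusted p = 0.00679). Stk39, a kinase that acts on cation-chloride carriers, was lower in KO cells by 1.43 ± 0.31 before LPS and 1.55 ± 0.31 at 24 h, and rose at 6 h in both genotypes, by 1.25 and 2.00.

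Of 18 genes listed as glutamate and glutathione enzymes, 5, 4 and 5 were higher and 1, 1 and 2 lower in KO cells, against 6.96%, 6.23% and 6.97% of all genes higher and 7.13%, 5.88% and 8.44% lower. The list also holds Phgdh, an enzyme of serine synthesis, which is among those higher at each time. Chac1, which breaks down glutathione, was higher by 2.03 ± 0.41, 2.73 ± 0.41 and 2.49 ± 0.41. Asns, which makes asparagine, was higher by 1.85 ± 0.51, 2.28 ± 0.51 and 2.57 ± 0.51, and Phgdh, the first step of serine synthesis, by 1.39 ± 0.28, 1.57 ± 0.28 and 2.61 ± 0.28; limma called all 9 differences. Glud1, glutamate dehydrogenase, was lower in KO cells at 24 h by 1.23 ± 0.16, and its 24 h responses differed by -1.28 ± 0.22 (limma, adjusted p = 0.00489). Glul, which makes glutamine from glutamate, fell at 6 h by 0.85 ± 0.17 in control and 1.12 ± 0.17 in KO cells. These lists were chosen with earlier results of these data known.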

How the data were processed

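The 30 samples (6 groups of 5) were read from 1 scanner file each. The files hold the deposited spot intensity in Cy5 and Cy3, from Feature Extraction (version 10.7.3.1, per the file headers), and a log10 ratio of Cy5 over Cy3 that the same software computed, per the file headers. Per the labels, all 30 arrays have the sample in Cy5 and the reference in Cy3, with no swap of dyes. A series table holds the authors' deposited log2 ratios, for which limma (version not given) is named in the submitters' processing notes. Its columns correlated with the values below at 0.999885 to 0.999998, with medians of 0.00584 to 0.0183, so its direction and scale are those used here and it was not centred.

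Intensities were corrected with normexp (offset 50) and loess normalised in limma 3.58.1 (R 4.3.3), without the 1639 control spots. Of 41174 probes, 22951 were named through RefSeq accessions, covering 16358 genes; 11260 genes passed the detection filter. Each gene was read from its brightest Cy5 probe. Of the members, 59 had over 1 passing probe. The share of probes well above background was 44.8 to 66.1% per array, and 0 probes were saturated in Cy5; the number of arrays limits the precision. One linear model over 30 arrays (24 residual degrees of freedom) gave 9 comparisons, each adjusted by the Benjamini-Hochberg method over all genes. It was tested on simulated data. Between same-numbered samples, deviations correlated above 0.1 in every pair only for LPS 24 h in control (0.177 to 0.731) and LPS 6 h in KO cells (0.109 to 0.657), so numbers were taken to pair samples only there. In these, 1 of 5 and 4 of 5 samples correlated best with their own number. LPS 24 h in KO cells, not taken to pair, also had 4 of 5, so the pairing is not firm. The members, substrate classes, marker lists and other lists were chosen with earlier results of these data known. Genes named in the text are Slc1a2, the 6 largest called rises and 6 largest called falls per comparison, up to 4 each way among the differences of responses, up to 3 per substrate class with the largest difference (called or not), the 3 members nearest the detection limit on each side and the 5 brightest, and up to 3 called genes per comparison from each further list. The alternatives tried are the scanner's log ratios, median centring, Cy5 alone, backgrounds as scanned, the deposited table, no filter, a filter on all 30 arrays, the mean of probes, slide and replicate number as blocks, no later slide, only the groups compared, and leaving out each array. Promoters of 157 members came from RefSeq (GRCm38.p6).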

Additional observations from a re-analysis of the deposited data

Results flagged for a closer look

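Of 354 sets of 5 arrays (59 named members in 6 groups), 23 (6.5%) held an array whose gap to its neighbour was over 0.71 of the set's range, Dixon's critical value; chance gives about 1 in 20. Control LPS 6 h replicate 3, of the later slide, held 9 of them. Its levels were -0.26 for Slc16a6, 2.25 for Slc16a7, 1.98 for Slc16a8, -0.09 for Slc1a5, 0.62 for Slc25a11, 1.73 for Slc37a2, 0.44 for Slc37a4 and -0.04 for Slc46a3, each the highest of its group, and -2.65 for Slc6a9, the lowest. Control LPS 24 h replicate 2, of the same slide, held 4: 0.76 for Slc32a1 and 2.59 for Slc6a13 were the lowest, and 0.75 for Slc46a3 and 2.26 for Slc4a8 the highest.

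KO unstimulated replicate 1 held 5, with 0.44 for Slc16a8 and -0.86 for Slc39a4 as the lowest and 1.13 for Slc25a5, -0.17 for Slc43a3 and 0.17 for Slc6a9 as the highest. KO unstimulated replicate 5 held 3, with 0.55 for Slc25a13 as the highest and 1.97 for Slc35f6 and 0.59 for Slc6a6 as the lowest. Slc1a2 was lowest in KO unstimulated replicate 2, at -0.04, and Slc37a1 was lowest in KO LPS 24 h replicate 5, at 0.06.

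The response to LPS differed between the genotypes by limma's test of the difference (KO minus control, log2) for Slc2a6 at 6 h (1.76) and 24 h (1.79), and for Slc12a7 (-1.22) and Slc45a2 (0.80) at 24 h. For Slc36a3 the 6 h value was 0.71; it passed the filter only through KO cells at 6 h, with 0 of 5 control arrays well above background there, so this value is a description. For Slc1a2, chosen for this pattern, the values were 2.98 at 6 h and 3.05 at 24 h.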

How the results depend on the processing

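The counts of called members, in the order KO against control unstimulated, at 6 h and at 24 h, LPS in control at 6 h and 24 h and LPS in KO at 6 h and 24 h, were 37, 33, 42, 26, 19, 63 and 37. Of all genes, 14.1%, 12.1%, 15.4%, 11.7%, 12.3%, 26.6% and 18.1% were called. Median centring gave 20, 16, 26, 12, 7, 39 and 19, with 8.31%, 7.17%, 8.86%, 5.87%, 5.67%, 16.7% and 9.73% of all genes. It moved the median of all genes most for LPS 6 h in KO cells, from 0.03 to -0.10 (a shift of -0.13). A replicate block gave 74, 60, 71, 49, 44, 105 and 67, with 29.7%, 24.3%, 27.0%, 22.0%, 24.5%, 42.4% and 33.1% of all genes. The counts of members thus moved along with those of all genes. The slide as a block gave 90 and 66 for KO unstimulated and at 24 h, 63 and 65 for LPS in control cells and 15 and 105 for LPS in KO cells, where it called 50.6%, 45.0%, 34.4%, 41.9%, 7.93% and 55.3% of all genes. Backgrounds as scanned gave 14 for LPS 6 h in control cells (7.93% of all genes). Without the later slide the control counts were 65 and 38 (25.6% and 19.9% of all genes). Only the arrays compared gave 19 for KO at 6 h and 4 for LPS 6 h in control cells (6.45% and 0.586% of all genes). The differences of responses were called for 3 members at 6 h and 4 at 24 h. The counts were 1 and 2 with backgrounds as scanned, and 1 and 2 with genes well above background on all 30 arrays. With the slide as a block they were 1 and 89, where 0.311% and 53.6% of all genes were called. That block leaves the KO values after LPS resting on 1 replicate at each time, so nothing is read from its counts. Without the later slide the count at 6 h was 6 (1.27% of all genes). At 24 h it was 2 with median centring and 7 with the replicate block (0.178% and 4.53% of all genes). Leaving out 1 array gave 23 to 38, 24 to 37, 33 to 49, 14 to 58, 13 to 28, 53 to 68 and 27 to 36, and 3 to 5 for both differences of responses. Shares of all genes are not given for those fits, so nothing is read from these ranges. The causes were not tested.

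Of 157 calls for named members, the replicate block kept all 157 and the authors' deposited values 156; the scanner's log ratios kept 138, Cy5 alone 139, backgrounds as scanned 128, no filter 141, the mean of probes 153, no later slide 151 and the groups compared 123. With 1 array left out, 1398 of 1640 fits kept the call and 0 reversed it. Same-numbered samples did not all deviate together for KO unstimulated (-0.335 to 0.687), at 6 h (-0.112 to 0.710) and 24 h (0.0592 to 0.724), or for LPS 6 h in control (0.0832 to 0.809) and 24 h in KO cells (0.0881 to 0.591). Every sample correlated best with its own number in 0 of these, nor in the comparisons taken to pair. The lowest values for KO at 6 h and 24 h and for LPS 6 h in control came from pairs with an array of the later slide.

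The slide as a block reversed 25 calls. For KO against control it gave 1.98 (Slc22a23), 0.37 (Slc25a12), 0.47 (Slc37a1) and 0.08 (Slc4a8) unstimulated, 0.18 (Slc12a7), 0.26 (Slc37a1) and 0.00 (Slc37a2) at 6 h, and 0.55 (Slc18a1), 1.49 (Slc25a13), -1.02 (Slc25a37), 0.96 (Slc25a38), 0.59 (Slc39a4), -0.24 (Slc45a2) and -1.47 (Slc6a8) at 24 h. For LPS 24 h it gave -0.51 (Slc25a38), 1.58 (Slc36a2) and -0.33 (Slc39a4) in control and 1.79 (Slc18a1), -0.38 (Slc25a12), -1.96 (Slc25a37), -0.72 (Slc27a4), -2.63 (Slc28a2) and -0.66 (Slc43a3) in KO cells. The differences of 24 h responses were -0.19 (Slc2a6) and -0.21 (Slc45a2). Under this setting the KO values at 24 h rest on KO LPS 24 h replicate 5 alone, and those at 6 h on KO LPS 6 h replicate 1 alone.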
